A study of Mus musculus with 12 samples.

Results

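A set of 218 of the 25697 probes on a mouse expression array was described in BV2 cells, an immortalised mouse microglial line. These probes were mildly induced by activation with lipopolysaccharide (LPS) and interferon-γ (IFN-γ) and were back near their non-activated level in activated cells given the compound E29. They were chosen on the authors' deposited processed intensities, with each value raised to at least 50 and put on the log2 scale. The median of the 11 activated arrays had to lie at least 1 and under 2 above the non-activated control, which is at least 2-fold and under 4-fold, and E29 had to lie under 1.5-fold above it. There were 499 mildly induced probes in all, 4.51% of the 11072 probes above 50 on an array, so the 218 members were 43.7% of these and 0.848% of the array. The other 281 mildly induced probes stayed at least 1.5-fold above the non-activated level in E29. The values of activation and of E29 against the non-activated control chose the members, so they are given below as a description, and the other compounds' arrays entered the choice through the median.

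The study measured total RNA from 12 cultures on Illumina bead arrays of 1 colour, with a single array per condition. These were a non-activated control with neither stimuli nor compound, an activated control given both stimuli and no compound, and activated cultures given 1 of 10 compounds, known by code only (E29, E33, E23, E21, E20, E19, E18, E14, E5 and E4). LPS was used at 1 µg/ml, IFN-γ at 10 ng/ml, and all cultures were taken at 4 h. What the compounds are, their doses and their vehicle is not stated in the labels. With no replicate in any condition, no spread between cultures and no p-value can be given, and every difference compares single arrays.

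Microglia are the resident macrophages of the brain. LPS, a component of the outer membrane of Gram-negative bacteria, is sensed by Toll-like receptor 4, which signals to NF-κB and to MAP kinases. IFN-γ acts through its own receptor and JAK kinases, and both routes switch on immediate-early transcription factors, cytokines and their receptors, antiviral genes and the inhibitors that later limit the response.

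The lists of cell type markers were checked on the same values. Of the 16 microglial and macrophage markers on the array, 13 lay above 50 in the non-activated control, with a summed level between 22774 and 27793 over the 12 arrays, while C1qa, P2ry12 and Tmem119 were at or below 50 on every array. All astrocyte, neuron, fibroblast, endothelial and T and B cell markers on the array were at or below 50 throughout, and 1 of 4 oligodendrocyte markers exceeded 50 on an array. Between 8538 and 9493 probes per array had a detection p-value under 0.01. In bulk RNA, fewer cells expressing a gene and less RNA of it per cell cannot be told apart.

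The members had a median processed intensity of 121 in the non-activated control (quartiles 47.8 and 372), 349 in the activated control (quartiles 177 and 944) and 105 in E29 (quartiles 52.3 and 338). The activated control lay a median of 1.49 above the non-activated control on the log2 scale (quartiles 1.21 and 1.78), and E29 lay a median of 0.038 from it (quartiles -0.082 and 0.30). In the activated control 204 members were at least 2-fold higher than in the non-activated control, against 9.07% of the 10185 probes above 50 on either array, a contrast that entered the choice. All 218 were detected in the activated control, 163 in the non-activated control and 145 in E29. At or below 50 were 58 members in the non-activated control, 53 in E29 and 39 in both. For these, a difference from an array above 50 is measured against 50 and is a bound. The 39 at or below 50 in both have a difference of 0 between these 2 arrays by construction. They met the limit in E29 whatever their values under 50, and they are part of the median of 0.038. The heat map of all members shows the non-activated and E29 columns near each other and the other 10 activated columns above them.

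**Figure D1:**
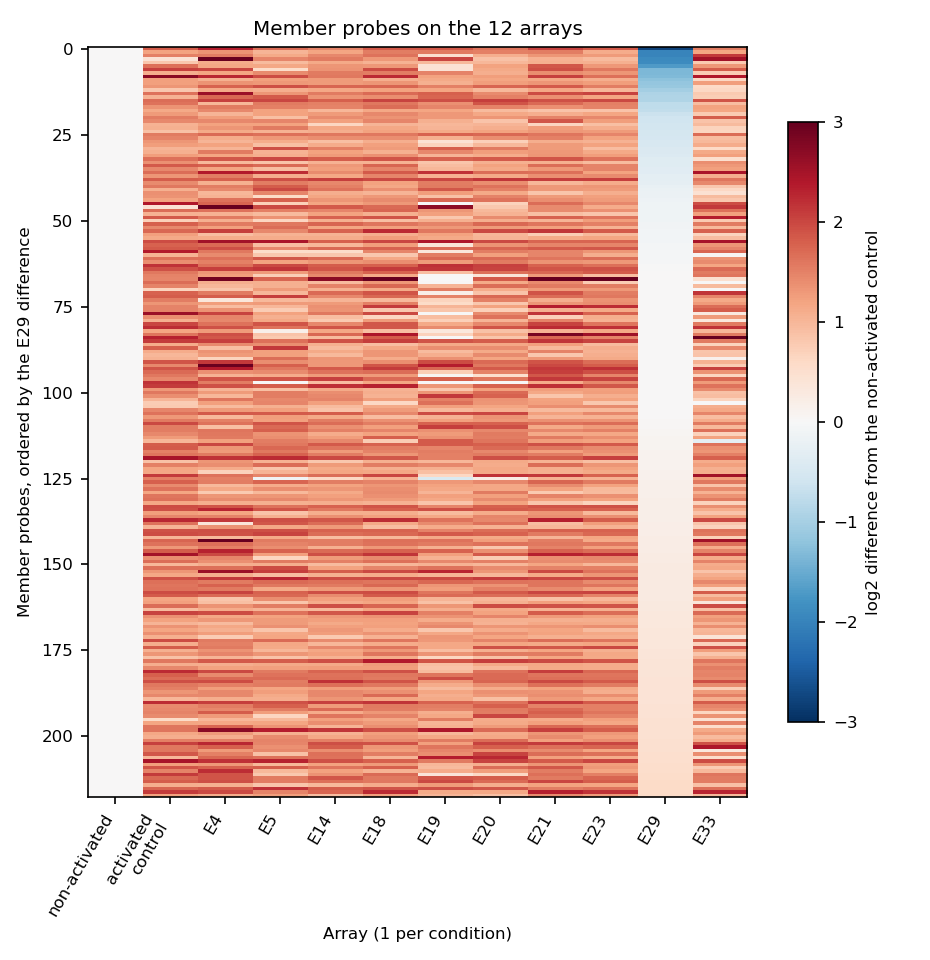
Difference of each of the 218 member probes (rows, ordered by the E29 difference) from the non-activated control on the log2 scale (colour, limited to 3 in either direction) on each of the 12 arrays (columns). The E29 column runs from blue at the top, where members lie below the non-activated level, to pale red at the bottom, and single rows stand out in E4, E19, E21 and E33.

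E29 was the lowest of the 11 activated arrays for 207 members (95.0%), against 23.8% of the 10826 probes above 50 on an activated array, and it lay at least 2-fold below all 10 other activated arrays for 85 members (39.0%), against 4.15%. Both follow in part from the choice. The 10 activated arrays other than E29 were all higher than the non-activated control for 209 members. The rule on the median of the activated arrays sets this in part, and no share over all probes was computed. Of the 170 named genes behind 209 member probes, 32 had more than 1 member probe, and 9 member probes carried no gene name in the annotation used.

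Among secreted signals, oncostatin M (Osm), an interleukin-6 family cytokine, gave the widest gap. Its brighter probe read 583 in the non-activated control, 2049 in the activated control and 84.6 in E29, and the 10 other activated arrays ran from 1611 (E14) through a median of 2065 to 2927 (E4). E29 was thus 24.2-fold below the activated control and also below the non-activated control. The second Osm probe read 45.5, 186 and 16.5 on the same 3 arrays, with the 10 others between 103 and 218. Pdgfb, a subunit of platelet-derived growth factor, read 542 in the non-activated control, 1246 in the activated control and 136 in E29, with the 10 others from 1093 through 1314 to 1584. On their brighter probes both genes were thus lower in E29 than in any other culture, the non-activated one included. A dimmer Pdgfb probe, which was no member, read 19.2 in the non-activated control and 26.5 in E29. Both values are under 50, so that probe shows no difference between these arrays.

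The interleukin-1 family alarmin Il33 and the chemokine Cxcl16 were dim. Il33 read 29.5 in the non-activated control, 152 in the activated control and 19.8 in E29, and the 10 others ran from 81.3 (E19) through 159 to 361 (E21). Cxcl16 read 10, the lowest value in the table, in the non-activated control, 161 in the activated control and 17.1 in E29, and the 10 others ran from 24.3 (E33) through 106 to 161 in the activated control itself. Cxcl16 in E33 was therefore also under 50.

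Receptors formed a second group, and several of these genes are named for their roles after their values were seen. The tumour necrosis factor receptor gene Tnfrsf1a had 3 member probes. The first read 130 in the non-activated control, 512 in the activated control and 133 in E29, with the 10 others from 377 (E18) through 415 to 513. The other 2 probes read 473 and 422 in the activated control and 141 and 129 in E29. All 3 put E29 within 1.5-fold of the non-activated control and at least 3.26-fold below the activated control. Tnfrsf1b, the second receptor for the same cytokine, read 82.8, 254 and 83.8 on these 3 arrays, with the 10 others from 194 through 273 to 330 (E20).

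Ifnar2, a subunit of the type I interferon receptor, read 129 in the non-activated control, 357 in the activated control and 146 in E29, with the 10 others from 269 (E5) through 333 to 363 (E4). A dimmer Ifnar2 probe was also a member and a further one lay just outside the rule, at 0.593 above the non-activated control in E29. The common β chain Csf2rb, shared by the receptors for GM-CSF, interleukin-3 and interleukin-5, had 2 member probes, and its mouse paralog Csf2rb2 had 1. Csf2rb2 read 329 in the non-activated control, 1187 in the activated control and 257 in E29, with the 10 others from 629 (E19) through 989 to 1187. The brighter Csf2rb probe read 71.1, 395 and 76.4 on the same 3 arrays, with the 10 others from 203 (E19) upwards. The paralogs are close in sequence, so which of them each probe measured is uncertain.

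Among signalling proteins inside the cell, Irak2, a kinase-like adaptor of Toll-like and interleukin-1 receptors, read 668 in the non-activated control, 1559 in the activated control and 285 in E29. The 10 other activated arrays ran from 1033 (E33) through 1482 to 1609 (E14), and E29 lay 1.23 below the non-activated control on the log2 scale. A brighter Irak2 probe fell just short of 2-fold induction and read 881 in the non-activated control, 1739 in the activated control and 286 in E29. Cyld, a deubiquitinase that removes the chains on which NF-κB signalling depends, read 592, 1197 and 736, with the 10 others from 1150 (E4) through 1311 to 1517 (E19). Its range was narrow and E29 stood clear of it. Mapkapk2, a kinase activated by p38 MAP kinase, read 2263, 6429 and 3148, with the 10 others from 4923 (E33) through 6397 to 7175 (E20). The adaptors Tifa and Traf3ip2 and the linear ubiquitin ligase subunit Rnf31 were dimmer members, with activated control values of 196, 123 and 121.

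Of the IRF and STAT pathway, 4 genes were members. Irf9, the DNA-binding subunit of the complex that type I interferon activates, read 244 in the non-activated control, 775 in the activated control and 322 in E29, with the 10 others from 651 (E33) through 769 to 942 (E19). Its second probe read 84.8, 279 and 125. Both Irf9 probes stayed slightly above the non-activated level in E29, by 0.40 and 0.56 on the log2 scale. Stat5a, a transcription factor of cytokine receptors, read 79.4, 341 and 87.0, with the 10 others from 122 (E19) through 295 to 456 (E33). Stat5a was thus also low in E19, 2.80-fold below the activated control.

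Socs1, an inhibitor of JAK kinases that is itself switched on by interferons, read 10 in the non-activated control, 136 in the activated control and 15.5 in E29, with the 10 others from 136 through 179 to 218 (E21). The activated control was the lowest of those 10, and it was at least 2.71-fold above both the non-activated control and E29. Its relative Socs7 had 2 member probes, whose highest values, 298 and 329, were in E4.

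The 4 immediate-early genes among the members were bright. Klf6, a zinc-finger transcription factor, read 1291 in the non-activated control, 3822 in the activated control and 899 in E29, with the 10 others from 3576 (E23) through 4011 to 4384 (E19). Junb, a subunit of AP-1, read 852, 2248 and 831, with the 10 others from 1973 (E5) through 2197 to 2496 (E20). In both genes the 10 other activated arrays were close to each other. On the log2 scale, E29 minus the non-activated control was -0.52 for Klf6 and -0.037, about level, for Junb. A second Klf6 probe was induced at least 4-fold and so was no member, and it read 98.1 in the non-activated control, 422 in the activated control and 107 in E29.

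Atf3, a transcription factor that restrains Toll-like receptor targets, read 749 in the non-activated control, 2393 in the activated control and 402 in E29, with the 10 others from 2393 through 2904 to 3165 (E20). E29 was 5.95-fold below the activated control and 0.90 below the non-activated control on the log2 scale. Zfp36, which encodes tristetraprolin, a protein that speeds the decay of cytokine mRNAs, read 1436, 5427 and 1738, with the 10 others from 3329 (E33) through 5710 to 6987 (E5). E33 was the next lowest array for Zfp36, 1.63-fold below the activated control. Btg1, an anti-proliferative factor, had 2 bright probes, which read 6580 and 6015 in the activated control and 1770 and 1801 in E29, next to 1851 and 1699 in the non-activated control.

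**Figure D2:**
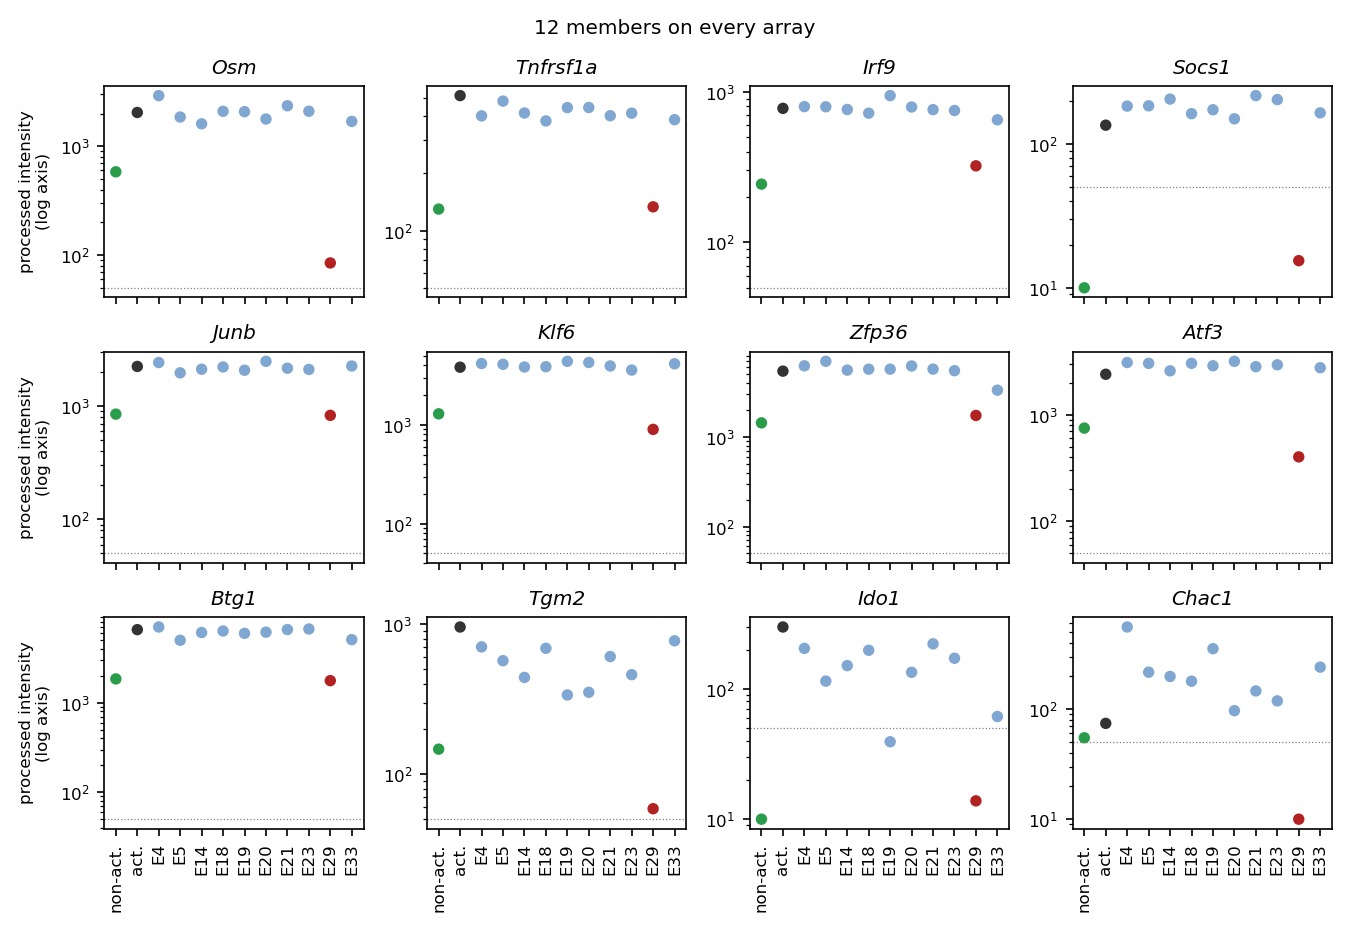
Processed intensity (log axis) of 12 member probes, 1 panel each and 1 point an array, with the non-activated control in green, the activated control in black, E29 in red and the other compounds in blue, and a dotted line at 50. E29 sits near or below the non-activated control in each panel, while Tgm2, Ido1 and Chac1 also spread widely over the other compounds.

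Promoters of these regulators were read from RefSeq (build GRCm38.p6), as the bases before each annotated start site on the gene's own strand. They are shown for 4 of the members just described, all of which hold a match, with matches to the motifs searched in capitals. These 4 do not stand for the rest. Windows of Irf9, Stat5a, Junb, Atf3, Irak2, Btg1, Mapkapk2 and Rnf31 held no match to any motif searched, and Klf6 held only an E-box. Tnfrsf1b, Ifnar2, Csf2rb2 and Tifa each had a window with a match. Socs1 (chr16:10785537-10785786, minus strand) holds overlapping matches to the interferon-stimulated response element from positions -83 and -77 relative to the start. Tnfrsf1a (chr6:125349473-125349722, plus strand) and Zfp36 (chr7:28379229-28379478, minus strand) each hold a match to the gamma-activated site, from -244 and -17, and Cyld (chr8:88696778-88697027, plus strand) holds a match to the NF-κB site from -155.
Socs1: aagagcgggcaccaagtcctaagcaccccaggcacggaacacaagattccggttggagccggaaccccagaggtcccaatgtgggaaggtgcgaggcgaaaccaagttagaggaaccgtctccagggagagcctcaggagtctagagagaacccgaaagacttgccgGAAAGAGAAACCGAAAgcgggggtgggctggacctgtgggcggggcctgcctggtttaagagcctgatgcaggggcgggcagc
Tnfrsf1a: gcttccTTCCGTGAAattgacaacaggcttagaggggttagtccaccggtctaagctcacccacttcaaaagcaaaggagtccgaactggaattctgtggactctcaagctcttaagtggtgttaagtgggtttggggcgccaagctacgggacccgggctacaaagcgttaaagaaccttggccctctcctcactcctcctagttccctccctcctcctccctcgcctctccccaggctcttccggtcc
Zfp36: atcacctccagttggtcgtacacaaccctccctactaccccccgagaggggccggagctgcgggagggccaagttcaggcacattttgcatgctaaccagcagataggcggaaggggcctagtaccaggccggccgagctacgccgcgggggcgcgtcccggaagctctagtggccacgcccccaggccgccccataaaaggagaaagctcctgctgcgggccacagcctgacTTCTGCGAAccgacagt
Cyld: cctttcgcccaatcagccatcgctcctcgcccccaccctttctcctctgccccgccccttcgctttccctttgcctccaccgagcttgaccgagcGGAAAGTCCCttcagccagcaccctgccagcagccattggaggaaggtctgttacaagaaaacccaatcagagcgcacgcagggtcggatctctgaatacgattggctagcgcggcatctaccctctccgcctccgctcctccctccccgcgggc
The motifs searched, on both strands and with overlaps allowed, were GAAANNGAAA for the interferon-stimulated response element, GGGNNNTTCC for NF-κB, TTCNNNGAA for the gamma-activated site, TGANTCA for AP-1 and CACGTG for the E-box, over 250 bases before and 50 after the start. Promoters were found for 136 of the 170 member genes, 181 windows in all. The interferon-stimulated response element was in 6.08% of these, next to 6.11% of windows of the other mildly induced genes and 3.44% of all 32851 windows. The gamma-activated site was in 9.94%, next to 6.11% and 8.30%, and the NF-κB site in 6.63%, next to 7.86% and 5.56%. The AP-1 site was in 9.39%, next to 6.99% and 7.81%, and the E-box in 7.18%, next to 9.61% and 7.15%. In the 8130 windows of genes above 50 on an array the shares were 3.21% for the interferon-stimulated response element, 7.02% for the gamma-activated site, 6.47% for NF-κB, 5.65% for AP-1 and 10.4% for the E-box. A match is a run of letters and does not show that a factor binds there.

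Effectors of the interferon response were also among the members. Iigp1, an immunity-related GTPase, read 10 in the non-activated control, 201 in the activated control and 31.1 in E29, with the 10 others from 109 (E19) through 153 to 205 (E21). Oas3, a sensor of double-stranded RNA, read 10, 155 and 57.1, with the 10 others from 63.9 (E4) through 126 to 183 (E5). Parp9, an ADP-ribosyltransferase family protein, read 15.6, 135 and 46.1, with the 10 others from 84.4 (E33) through 174 to 392 (E4). E4 was thus the lowest of those 10 arrays for Oas3 and the highest for Parp9. Rtp4 read 31.9, 176 and 74.4, and the 2 probes of Psmb10, a catalytic subunit of the immunoproteasome, read 3135 and 3474 in the activated control and 1893 and 2147 in E29. Psmb10 kept part of its activation in E29, 0.52 and 0.46 above the non-activated control on the log2 scale.

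Several members act in metabolism and the stress response. Hk2, a hexokinase that starts glycolysis, read 1758 in the non-activated control, 5386 in the activated control and 2130 in E29, with the 10 others from 4119 (E33) through 5325 to 6026 (E4). Ido1, which degrades tryptophan, read 10, 298 and 13.8, with the 10 others from 39.3 (E19) through 161 to 298. Ido1 in E19 was at least 5.96-fold below the activated control and in E33, at 61.3, it was 4.86-fold below. Wars, the tryptophanyl-tRNA synthetase, had 3 member probes, the brightest at 473, 1522 and 431 in the non-activated control, the activated control and E29, with the 10 others from 935 (E20) to 1585 (E18).

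Slc7a11, the cystine and glutamate exchanger that supplies glutathione synthesis, read 374 in the non-activated control, 749 in the activated control and 531 in E29, and the 10 others ran from 541 (E33) through 1013 to 1917 (E19). It was 2.56-fold above the activated control in E19 and 2.38-fold above it in E20, and E29 was close to E33. Chac1, a glutathione-degrading enzyme of the unfolded protein response, read 54.9, 74.1 and 10, with the 10 others from 74.1 through 188 to 556 (E4). Chac1 was a member because of the compounds' arrays: the activated control was under 1.5-fold above the non-activated control, while E4, E19, E33, E5, E14 and E18 were 2.42-fold to 7.50-fold above the activated control. Iqcb1 and the unnamed probe ILMN_1225528 were also under 1.5-fold up in the activated control, and the unnamed probe read 188 in the non-activated control, 255 in the activated control, 1456 in E4, 1072 in E33 and 37.8 in E29.

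Lcn2, a protein that binds bacterial siderophores, read 10 in the non-activated control, 249 in the activated control and 10.3 in E29, with the 10 others from 50.3 (E19) through 153 to 398 (E33). Tgm2, a transglutaminase, read 147, 959 and 58.7, with the 10 others from 337 (E19) through 590.0 to 959. The activated control was 6.54-fold above the non-activated control for Tgm2, the largest difference among members above 50 on both arrays, and Tgm2 was at least 2-fold below the activated control in E14, E19, E20 and E23 as well as in E29.

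Surface proteins included Cd83, a marker of activated antigen-presenting cells, which read 1063 in the non-activated control, 3780 in the activated control and 980 in E29, with the 10 others from 1855 (E19) through 3438 to 5400 (E33). Itgav, an integrin α chain, read 196, 556 and 260, with the 10 others from 328 (E33) through 449 to 556. Cd207, which encodes the lectin langerin, read 10, 138 and 10, with the 10 others from 47.4 (E19) through 252 to 715 (E21). Cd207 was 4.27-fold to 5.19-fold above the activated control in E18, E21 and E23, the largest differences upward among the members in these 3 compounds, and at least 2.75-fold below it in E19. The orphan receptor gene Gpr85 and the immune receptor gene Pilrb1 were highest in the activated control, at 365 and 289, and lowest of the 10 others in E19, at 88.1 and 55.3.

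Regulators of small GTPases and the cytoskeleton made a further group. Tagap, a GTPase-activating protein, read 753 in the non-activated control, 3198 in the activated control and 1104 in E29, with the 10 others from 971 (E19) through 2223 to 3198. On this probe E19 was below E29, and E20 at 1150 and E5 at 1311 were next. On its dimmer member probe the same 4 arrays were the lowest of the activated ones, all under 50, with 17.0 in E19, 17.1 in E29, 31.7 in E5 and 37.3 in E20, next to 225 in the activated control. A further Tagap probe was induced at least 4-fold and so was no member. That probe read 103 in the non-activated control, 682 in the activated control and 223 in E29, where it stayed 1.11 above the non-activated control on the log2 scale. Arhgef3, a guanine nucleotide exchange factor, read 172, 712 and 67.0, with the 10 others from 232 (E19) through 562 to 712. Zyx, a focal adhesion protein, was the brightest member, at 4640 in the non-activated control, 12297 in the activated control and 3843 in E29.

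Cell death and turnover genes were mixed. Mdm2, the ubiquitin ligase that restrains p53, had 2 member probes, the first at 898 in the non-activated control, 2084 in the activated control and 814 in E29, with the 10 others from 1569 (E33) through 2371 to 3109 (E5). Bcl2l11, the pro-apoptotic protein Bim, had 2 member probes, the brighter at 1306, 3326 and 1161, with the 10 others from 1947 (E5) through 3003 to 3663 (E20). Rffl, a RING-finger ubiquitin ligase, had the most member probes of any gene, 5. These read between 174 and 843 in the activated control and between 60.6 and 224 in E29, each within 1.5-fold of its non-activated value.

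Other members with a large activation were Rgcc, a regulator of the cell cycle, Gimap6, a GTPase, Cpd, a carboxypeptidase, and Lrrc8c, a subunit of volume-regulated anion channels. Rgcc read 483 in the non-activated control, 2073 in the activated control and 723 in E29, with the 10 others from 1055 (E19) through 1995 to 2443 (E21). Gimap6 read 52.9, 299 and 62.5, with the 10 others from 124 (E19) through 211 to 299, and E5 at 125 was next to E19. Cpd had 2 member probes that were lowest of the 10 others in E23, and the brighter one read 77.8 in the non-activated control, 303 in the activated control, 73.8 in E29 and 446 in E4. Lrrc8c read 56.9, 271 and 64.6, with the 10 others from 154 (E20) through 222 to 285 (E21).

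Some members singled out a compound other than E29. Havcr2, which encodes the inhibitory receptor TIM-3, read 212 in the non-activated control, 433 in the activated control and 204 in E29, with the 10 others from 220 (E33) through 444 to 609 (E19). E33 was thus near the non-activated level for Havcr2. Rcan1, an inhibitor of calcineurin, read 438 in the non-activated control, 1314 in the activated control and 611 in E29, with the 10 others from 1102 (E18) through 1421 to 2367 (E33), so here E33 was the highest. A brighter Rcan1 probe was not induced 2-fold and so was no member. It read 1449 in the non-activated control, 2446 in the activated control and 1099 in E29. Ikzf1, a lymphoid and myeloid transcription factor, read 181, 512 and 199, and at 133 E19 was lower than both the non-activated control and E29. Hamp, the iron regulator hepcidin, read 10, 140 and 10, with the 10 others from 95.1 (E4) through 135 to 257 (E21). These genes were picked out after their values were seen.

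E29 lay at least 2-fold below the non-activated control for 13 members (5.96%), against 10.8% of the 10286 probes above 50 on either array, and at least 1.5-fold below it for 22, against 21.3%. The other 196 were within 1.5-fold of it. They include the 39 members at or below 50 on both arrays, which could not be called lower. These 39 count in the base of the 5.96%, while the 10286 probes leave such probes out. The member share is therefore lower than it would be on the base of the 10286 probes, and its gap to 10.8% is overstated. The same holds for the 22 members next to 21.3%. The 13 probes belonged to Osm, Pdgfb, Xkr8, Zfp212, Prss46, Arhgef3, Pkp2 (2 probes), Tgm2, Irak2, Kpna3 and Ppfibp2, and 1 was unnamed. Xkr8, a phospholipid scramblase, read 199 in the non-activated control, 568 in the activated control and 19.96 in E29, with the 10 others from 276 (E19) through 520 to 861 (E33). Zfp212, a zinc-finger protein, read 297, 519 and 79.9, with the 10 others from 509 (E33) through 602 to 656 (E14), and Prss46, a serine protease, read 163, 515 and 26.9. The plot of E29 against activation places these members below the dotted line.

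**Figure D3:**
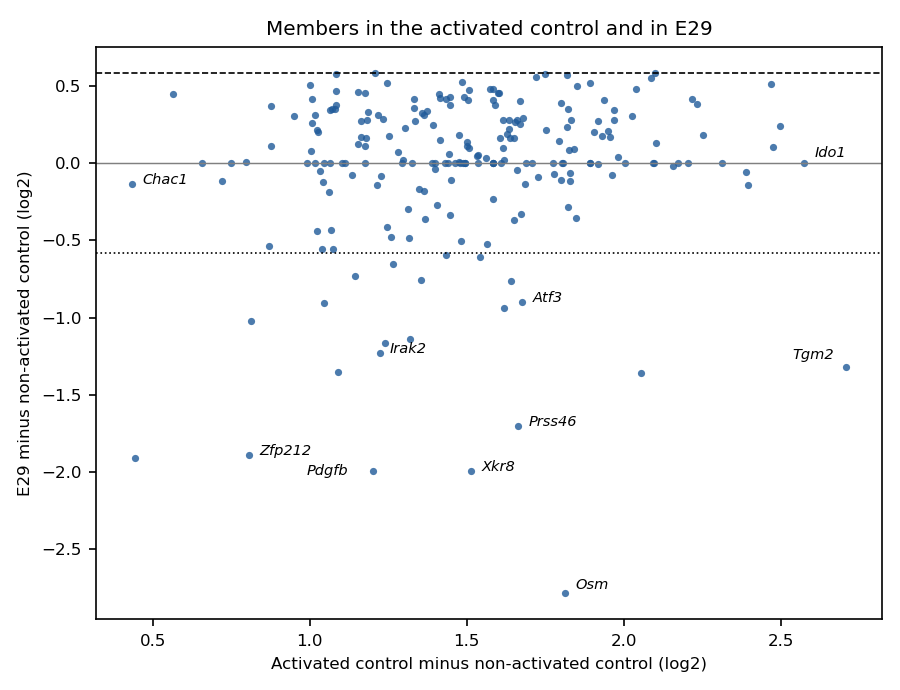
Each point is 1 of the 218 member probes, with the activated control minus the non-activated control on the x axis and E29 minus the non-activated control on the y axis, both in log2 of values raised to at least 50. The dashed line is the rule's limit of 1.5-fold, the dotted line is the same distance below 0, and points at exactly 0 on the y axis are at or below 50 on both arrays.

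Against the other mildly induced probes, the members began from slightly lower levels. The 281 others had a median of 146 in the non-activated control and 424 in the activated control, and the median of the 11 activated arrays lay a median of 1.35 above the non-activated control for them and 1.34 for the members. In E29 the others stayed a median of 1.18 above the non-activated control (quartiles 0.89 and 1.56), which the rule fixes in part. On all 12 arrays 146 of 218 members and 245 of 281 others were above 50. The rule fixes this in part, since it keeps the others above 50 in E29. In the non-activated control 58 of 218 members and 36 of 281 others were at or below 50. Among the 294 probes induced at least 4-fold, 39 (13.3%) were also at the non-activated level in E29.

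For the 9 compounds other than E29, member medians against the activated control were near 0. On the log2 scale they were -0.26 in E33, -0.17 in E19, -0.10 in E5, -0.091 in E14, -0.090 in E23, -0.049 in E20, -0.031 in E18, -0.030 in E4 and -0.0015 in E21, next to -1.48 in E29. The other mildly induced probes gave -0.19 in E33, -0.15 in E19, -0.13 in E5, between -0.11 and -0.038 in the other 6, and -0.25 in E29. All of these share the 1 activated control array. Measured from the median of the 10 remaining activated arrays instead, the member median was -0.16 in E33 and -0.079 in E19, and it was above 0 in the other 7 compounds.

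**Figure D4:**
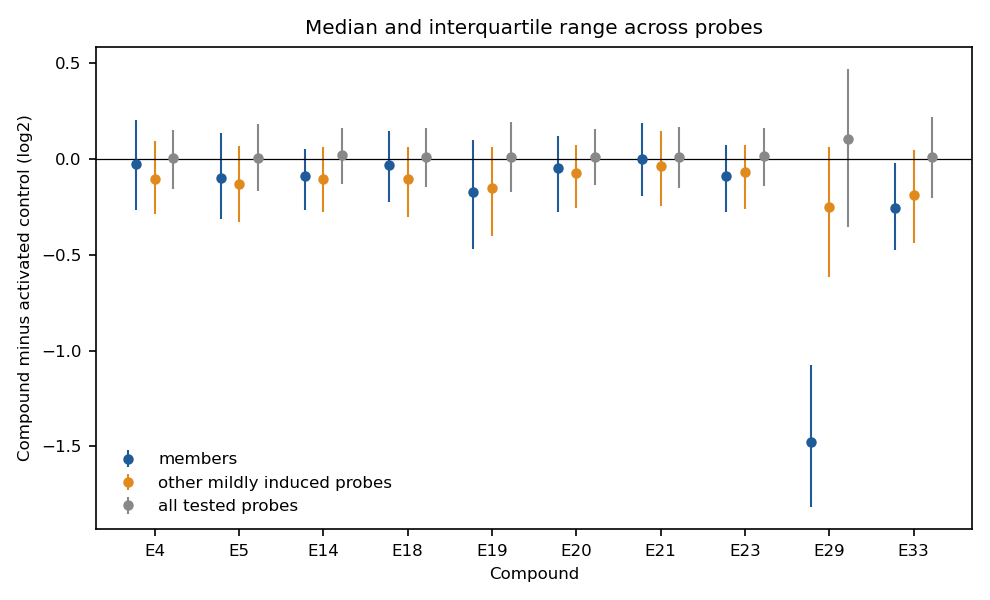
Median (points) and interquartile range across probes (bars) of each compound's difference from the activated control on the log2 scale, for the 218 members (blue), the other 281 mildly induced probes (orange) and all probes above 50 on either array (grey). The member median stands at -1.48 in E29 and between -0.26 and 0 in the other 9 compounds.

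Single members differed more than these medians. In E19, 21 members (9.63% of the members) were at least 2-fold below the activated control, against 1.43% of all probes tested. In the same array 3 members (1.38%) were at least 2-fold above it, against 0.723%. For the compounds that follow, brackets give only the share of all probes tested, and for E29 both shares are given. E5 had 10 below (0.765%) and 2 above (0.377%), E20 had 9 below (0.604%) and 1 above (0.266%), and E33 had 8 below (0.784%) and 2 above (0.581%). E14 had 5 below (0.503%) and 3 above (0.103%). E4 had 2 below (0.379%) and 7 above (0.481%). E23 had 2 below (0.307%) and 1 above (0.0615%), E18 had 1 below (0.246%) and 2 above (0.0716%), and E21 had 1 below (0.194%) and 2 above (0.133%). For E29, 180 members (82.6% of the members) were below, against 9.5% of all probes tested, and 0 were above, against 4.89%. The choice of members largely sets these E29 counts. The counts for all compounds rest on the 1 activated control array. Measured from the median of the 10 remaining activated arrays, the members at least 2-fold lower or higher numbered 3 in E5, 0 in E14 and 2 in E20, against 12, 8 and 10, and 15 in E33 against 10. The activated control was itself part of the rule, so shares above the background are not read as a property of the members.

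In E19 the members furthest below the activated control were Ido1, Pilrb1 and Lcn2 and the dimmer Tagap probe, and Gpr85 and Tagap also led E5. Lcn2 shows how compounds parted: E33 was 1.60-fold above the activated control while E5, E14, E19 and E20 were at least 2.56-fold below it. Aqp9, a channel for water and glycerol, read 66.2 in the non-activated control, 223 in the activated control, 77.0 in E29 and 718 in E4, where it was 3.21-fold above the activated control. Il33 in E21 was 2.37-fold above the activated control.

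Of the 10 activated arrays other than E29, E33 was the lowest for 76 members (34.9%), against 17.3% of probes tested and 34.2% of the other mildly induced probes. E19 was the lowest for 56 (25.7%), against 10.7% and 17.4%, and E5 for 24 (11.01%), against 9.01% and 13.2%. The activated control was the lowest for 6 (2.75%), against 9.51% and 2.49% of the other mildly induced probes, and the highest for 37 (17.0%), against 10.4% and 22.8%. E4 was the highest for 39 members (17.9%), against 9.39% and 9.96% of the other mildly induced probes. The lowest and highest of these 10 arrays were at least 2-fold apart for 70 members (32.1%), against 7.51% of probes tested and 14.9% of the other mildly induced probes, with a median range of 0.76 on the log2 scale. The widest ranges, 3.84, 2.98 and 2.91, were those of Cd207, Lcn2 and Chac1.

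Genes of the lists used here were counted once, by their brightest probe, among those above 50 on an array. Over all 7603 such genes, 530 were induced at least 2-fold and 185 of these (34.9%) were at the non-activated level in E29, and of the 335 mildly induced genes 154 (46.0%) were. Among MAP kinase and immediate-early genes 5 of 9 induced genes were at that level, the members Atf3, Junb, Klf6 and Zfp36 and the strongly induced Dusp1. Jund, Dusp16, Maff and Gadd45b were not. Among IRF and STAT genes it was 4 of 13, the members named above. In the same list the strongly induced inhibitor Socs3 stayed 1.72 above the non-activated control in E29 and Cish 4.38, on the log2 scale.

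Type I interferon-stimulated genes had 4 of 32 induced genes at the non-activated level in E29, and 26 of the 32 were induced at least 4-fold. NF-κB subunits and regulators had 3 of 15, Cyld with the strongly induced Rel and Nfkbia, and redox, nitric oxide and metabolism genes 3 of 12, namely Hk2, Ido1 and Slc7a11. Surface and adhesion genes had 3 of 10. Antigen presentation had 2 of 15, cytokines 1 of 10, chemokines 1 of 11 and IFN-γ GTPases 1 of 10. The chemokine was Cxcl16 and the GTPase Iigp1, each under 50 in both the non-activated control and E29. The same held for Socs1, Ido1, Parp9 and Slamf7 in the counts of their lists. Such genes are at the non-activated level in E29 by the floor alone. Iigp1 read 10 and 31.1 on these 2 arrays, and Parp9 15.6 and 46.1. Apoptosis had 1 of 7 and heat shock and unfolded protein response 1 of 2. Toll-like receptor signalling had 0 of 3 by brightest probes and cell cycle 0 of 1, and no cholesterol synthesis gene was induced.

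Other probes of the same genes did not always match the members. Of the 170 member genes, 82 had at least 2 probes, and in 18 of them at least 2 probes were above 50 and every such probe was a member. In 51 genes a probe above 50 was not a member, of which 11 genes had such a probe induced at least 4-fold. For Bcl2l11 the 2 other probes read 162 and 64.4 in the non-activated control, 1006 and 360 in the activated control and 1020 and 373 in E29, so they stayed at the activated level while both member probes were near the non-activated one. Ggct, γ-glutamylcyclotransferase, had 2 other probes at 846 and 149 in E29 next to 307 and 42.6 in the non-activated control. Oas1g had 2 other probes at 2802 and 1430 in E29 next to 2613 and 1648 in the activated control, and probes of this gene family can share targets among close paralogs. Il15ra, a receptor chain for interleukin-15, had a strongly induced probe at 21.5 in the non-activated control, 483 in the activated control and 95.6 in E29, which was 2.34 below the activated control in E29 on the log2 scale, next to 2.20 and 1.18 below for its 2 member probes.

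**Figure D5:**
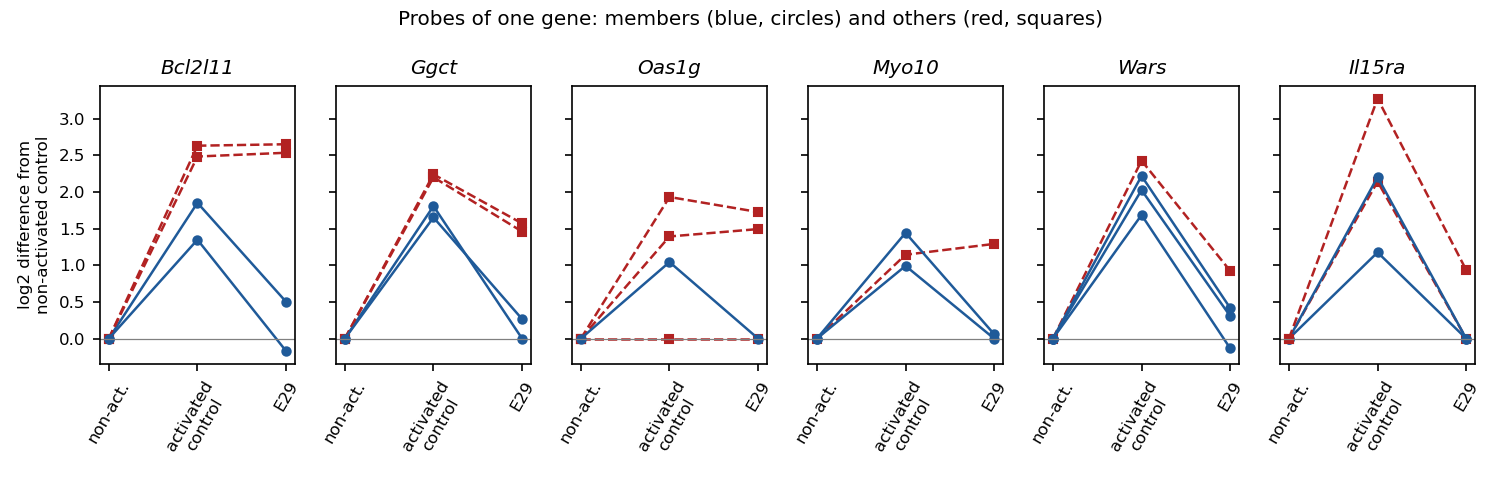
Difference from the non-activated control (log2 of values raised to at least 50) in the activated control and E29 for each probe of 6 genes, member probes as blue circles with solid lines and other probes as red squares with dashed lines. In Bcl2l11, Oas1g and Myo10 other probes stay at the activated level in E29, while in Il15ra and Wars they come down with the members.

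The probes nearest each limit of the rule lay close to it. Just inside the lower limit of activation were 4930402H24Rik at 1.002 and Zfp212 at 1.005, and just outside were Kpna6 at 0.997 and Ube2z at 0.994. Just inside the upper limit were Zfp36 and Rgcc, both at 1.99, and just outside Rhob and Fbxw17, both at 2.02. For E29 above the non-activated control, Rhoc and Rgcc lay just inside at 0.583, and Pola2 at 0.589 and a further Ifnar2 probe at 0.593 just outside.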

How the data were processed

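The authors deposited 2 tables of the same 12 arrays. The scanner table gives a mean intensity over beads and, per the file headers, a detection p-value for each of 25697 probes. The deposited processed intensity values are linear, with array medians between 14.9 and 15.0 and a lowest value of 10, and rank probes as the scanner signals do. Their normalization is unstated (not given in the sources used here). GenomeStudio 2010.3 was used, per the submitters' processing notes. From the deposited processed values, log2 differences were computed after raising values to at least 50, so folds of dim probes are understated. A difference was assessed for probes above 50 on either array and called at 2-fold. Detection means a p-value under 0.01. Gene names came from the platform annotation, which gives 1 gene for 23978 probes and none for 1719. Of these, 23962 have a gene ID in RefSeq, from which promoters were taken.

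Members and gene lists were chosen with earlier results of these data known. Named members were the 10 with the largest activation, the 8 lowest in E29 against the non-activated control, the 6 furthest below the activated control in E29, the 2 lowest and 2 highest of each other compound if 2-fold, all members in a list, and those nearest each limit. Further genes (among them Tnfrsf1a, Tnfrsf1b, Btg1, Csf2rb2, Mdm2, Rffl, Wars and Mapkapk2) were named for their roles after their values were seen. Alternatives were neqc (limma 3.58.1, R 4.3.3, offset 16), no background correction, floors of 20 and 100, and other references and limits. Summaries used pandas 2.3.3 and numpy 2.4.6 in Python 3.11.15 and figures matplotlib 3.10.9, and the scripts were tested on simulated data. The number of arrays, 1 per condition, limits the precision.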

Additional observations from a re-analysis of the deposited data

How the results depend on the processing

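No paired analysis was possible because there was 1 array for each condition. The number of members was 218 as reported and between 151 and 288 under 7 other settings, and it was 137 with no background correction, of which 86 were shared (39.4% of the 218). Under the 7 other settings between 135 (floor of 100) and 218 (detected on at least 1 array) of the 218 stayed members. With a floor of 20 and with the activated control in the rule, 62.2% and 62.8% of the resulting members were among the 218. With no background correction the members' median in E29 was -0.92 (log2, against the activated control), with neqc -1.59, with a floor of 20 -1.56, with a floor of 100 -1.08, against the median of the 10 remaining activated arrays -1.35 and with members chosen by the activated control -1.37. The cause of these shifts was not tested. Without background correction the members changed at least 2-fold numbered 4 in E4, 5 in E5, 2 in E14, 1 in E18, 14 in E19, 5 in E20, 1 in E21, 1 in E23, 93 in E29 and 2 in E33, against 9, 12, 8, 3, 24, 10, 3, 3, 180 and 10 as reported. Against the median of the 10 remaining activated arrays they numbered 3 in E5, 0 in E14, 1 in E18, 2 in E20 and 1 in E23, while they were 6 in E4, 17 in E19 and 15 in E33, no test being possible with 1 array. With that reference the members' medians were 0.093 in E4, 0.015 in E5, 0.020 in E14, 0.072 in E18, -0.079 in E19, 0.014 in E20, 0.093 in E21, 0.0069 in E23 and -0.16 in E33, and those of the other mildly induced probes 7.2e-05 in E4, -0.037 in E5, -0.013 in E14, 0.0040 in E18, -0.065 in E19, 0.0039 in E20, 0.054 in E21, 0.016 in E23, -0.15 in E29 and -0.077 in E33. With members chosen by the activated control the medians were -0.16 in E4, -0.22 in E5, -0.18 in E14, -0.17 in E18, -0.32 in E19, -0.18 in E20, -0.14 in E21, -0.23 in E23 and -0.35 in E33. The dimmer Tagap probe in E21 turned from -1.07 to 0.050 against that median, and the cause was not tested. Of 415 values of named members under alternatives, 271 moved by less than the spread used and 143 by more.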
